A study of Homo sapiens with 50 samples.

Results

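A set of 10 genes that govern the passage from G1 into S phase was followed through 50 microarrays of A549 cells, an established human lung adenocarcinoma line: the cyclins CCND1, CCND3, CCNE1 and CCNE2, the inhibitors CDKN1B and CDKN2C, the F-box protein SKP2, the transcription factors MYC and E2F1, and the histone gene coactivator NPAT. The members were chosen by name, and each was represented by the probe set annotated to it with the highest mean over all 50 arrays. Of the 10, 9 were measured among 18239 genes, through 19 probe sets. No probe set of the annotation used here named CDKN2C, which was not analysed here. Values are deposited log2 probe set signals, so a difference of 1 is a doubling, and signals of different probe sets are not set against each other.

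The cells were given 1 uM compound 16, a compound studied as a PKM activator by the series' title, or DMSO, its vehicle, in BME+NEAA medium without serine or with serine. Arrays were made at 0, 1.5, 6 and 24 h after addition, which came 24 h after the cells had been moved out of RPMI, and the preSwitch group was taken before that move. Each of the 17 groups had 3 arrays, except DMSO with serine at 1.5 h, which had 2. Replicate numbers are those at the end of the titles. They run through the series in blocks by time and pair no samples, so a difference between times, or from the preSwitch cells, cannot be told apart from a difference between blocks. The labels do not say whether replicates were separate cultures, so the p-values rest on the scatter among these arrays, which may be technical.

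The epithelial keratins KRT8 and KRT18 had signals of 13.3 to 13.75 and 14.25 to 14.44 over the 50 arrays, and the aldo-keto reductase AKR1B10, abundant in this line, 14.27 to 14.42. Fibroblast, endothelial and leukocyte markers (COL1A1, COL3A1, PECAM1, CDH5, PTPRC and CD3E) reached at most 5.323 on any array. A549 cells are known to lack CDKN2A, and its probe set lay at 4.53 to 6.29, but MTAP, a neighbour often lost with it, gave 8.21 to 8.81. A probe set signal read without a detection value cannot decide whether MTAP is deleted in these cells, and its deletion was not tested.

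In the textbook scheme, growth signals raise MYC and the D cyclins, whose kinases begin to phosphorylate the retinoblastoma protein and release E2F factors. E2F then drives the E cyclins and the genes of DNA replication, while CDKN1B (p27) holds cyclin E kinase in check until SKP2, the substrate receptor of a ubiquitin ligase, marks p27 for destruction. NPAT is phosphorylated by cyclin E kinase at S entry and switches on the replication-dependent histone genes.

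The promoter of E2F1 is shown because the factor is known to act on its own gene. The stretch covers the 63 bases before the start of E2F1 (chr20:33686386-33686448, minus strand, GRCh38.p14, sequence from RefSeq), with 2 matches to E2F words in capitals.
E2F1: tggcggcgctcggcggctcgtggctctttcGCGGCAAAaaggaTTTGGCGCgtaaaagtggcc
The words searched were TTTCCCGC, TTTCGCGC, TTTGCCGC and TTTGGCGC on both strands, which do not overlap here, within 250 bases before to 50 bases after each start. The first capitals are TTTGCCGC on the opposite strand. Such a word stood in 3.3% of 35116 RefSeq promoters. Of the 7 members with a promoter entry (CCND3, CCNE1, CDKN1B, CDKN2C, SKP2, E2F1 and NPAT), E2F1 was the only one to hold any. An E-box CACGTG, the word MYC and MAX bind, stood in 7.3% of promoters and, among these members, in CDKN2C. TGATGNAAN, a word of the amino acid response, stood in 3.6% of promoters and in none of these members. A match describes letters and no binding, and the absence of a match says only that these letters are not in this window.

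**Figure D1:**
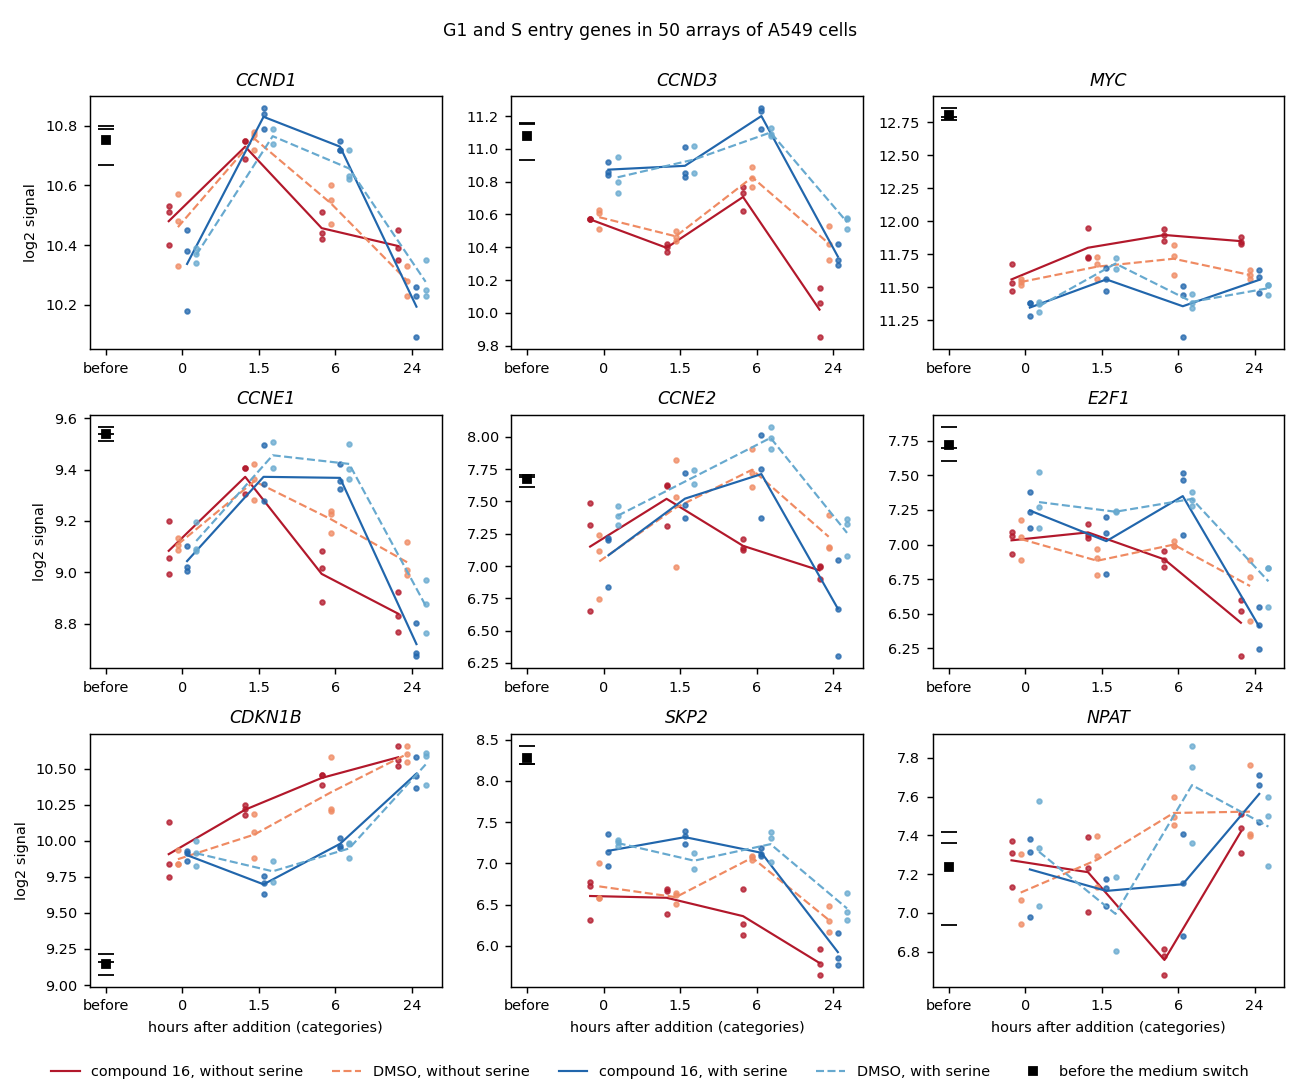
Log2 signal of each of the 9 measured genes (1 panel a gene) by hours after addition (categories, not to scale); points are arrays, lines join group means (solid for compound 16, dashed for DMSO, red without and blue with serine), and dashes with a square give the preSwitch arrays and their mean. SKP2 and MYC arrays before the change of medium sit above every later array, and CDKN1B arrays sit below them.

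On the change of medium, MYC and SKP2 fell and CDKN1B rose whether or not the new medium held serine. In medium without serine, DMSO at 0 h against the preSwitch cells, 1 member rose and 7 fell, where 28.6% of all genes passed the limma test, that is, had a Benjamini-Hochberg adjusted p below 0.05. With serine, 1 rose and 6 fell, against 21.7% of all genes. The median over the 9 members was -0.50 without serine and -0.39 with serine, while that over all genes was 0.01 in each. Both comparisons use the same 3 preSwitch arrays. In RNA from whole cultures, fewer cells in a phase of the cycle and less RNA per cell cannot be told apart.

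SKP2 (chr5:36152111-36193530, GRCh38.p14, as for the other coordinates) had signals of 6.58, 6.58 and 7.001 without serine and 7.28, 7.21 and 7.25 with serine, against 8.43, 8.21 and 8.20 in preSwitch cells. The groups did not overlap. The difference was -1.56 ± 0.14 (SE, limma adjusted p = 9.43e-12), a 2.94-fold fall, without serine and -1.03 ± 0.14 (adjusted p = 1.97e-07), a 2.04-fold fall, with serine.

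MYC (chr8:127735434-127742951), which drives growth and cell cycle entry, gave 11.56, 11.54 and 11.52 without serine and 11.39, 11.37 and 11.31 with serine, against 12.77, 12.79 and 12.86 in preSwitch cells. No array of either medium came near the earlier level. The fall was -1.27 ± 0.08 (adjusted p = 2.24e-16) without serine and -1.45 ± 0.08 (adjusted p = 5.22e-18) with serine, or 2.41-fold and 2.73-fold.

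CDKN1B (chr12:12717368-12722369) was the member that rose. It stood at 9.84, 9.94 and 9.84 without serine and 10.00, 9.92 and 9.83 with serine, against 9.22, 9.07 and 9.16 in preSwitch cells. Every later array was the higher one, by 0.73 ± 0.09 (adjusted p = 1.48e-08) without serine and 0.77 ± 0.09 (adjusted p = 7.08e-09) with serine. The inhibitor and the ligase subunit known to target its protein moved in opposite directions at the level of RNA.

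The cyclins and E2F1 (chr20:33675477-33686385) differed by less. CCNE1 (chr19:29811991-29824312) differed by -0.43 ± 0.07 without serine (adjusted p = 1.70e-06) and -0.42 ± 0.07 with serine (5.01e-06), and CCND1 (chr11:69641156-69654474) by -0.29 ± 0.06 (0.000247) and -0.39 ± 0.06 (6.71e-06). CCND3 (chr6:41934933-42050035) differed by -0.50 ± 0.07 (5.67e-07) without serine and E2F1 by -0.68 ± 0.12 (2.64e-05). All 4 of these genes fell in both media. CCNE2 (chr8:94880224-94896693), the second E cyclin, fell without serine (-0.64 ± 0.18, adjusted p = 0.00657), a call lost without DMSO replicate 20 (-0.49, 0.0657). With serine CCNE2 differed by -0.28 (95% interval -0.65 to 0.09, adjusted p = 0.321). With serine, the fall of CCND3 (-0.25 ± 0.07, 0.00702) was lost without preSwitch replicate 2 (-0.21, 0.0545) or DMSO replicate 13 (-0.20, 0.0642), and that of E2F1 (-0.41 ± 0.12, 0.0107) without preSwitch replicate 3 (-0.35, 0.0718) or DMSO replicate 13 (-0.32, 0.0960). NPAT did not pass the test in either medium, at -0.13 and 0.08.

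For 5 of the 9 members, the preSwitch arrays lay outside the range of the 47 arrays after the change of medium. The 3 preSwitch arrays of SKP2, MYC, E2F1 and CCNE1 lay above all 47, and those of CDKN1B below all 47. For CCNE1 the gap was very narrow, with the lowest preSwitch array at 9.511 and the highest later array at 9.507. For E2F1 these arrays were at 7.605 and 7.525. Later arrays of CCND1, CCND3, CCNE2 and NPAT did reach the preSwitch range. Later SKP2 signals were 5.64 to 7.39, against 8.20 to 8.43 before, and later CDKN1B signals were 9.63 to 10.66, against 9.07 to 9.22 before. Of all genes, 8.32% had preSwitch arrays outside the range of the later ones. As a measure of RNA integrity, the signal of ACTB's 3′ probe set less that of its 5′ probe set averaged 1.14 without serine and 1.22 with serine at 0 h in DMSO, and 1.37 in preSwitch cells. Its part in these differences was not tested.

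**Figure D2:**
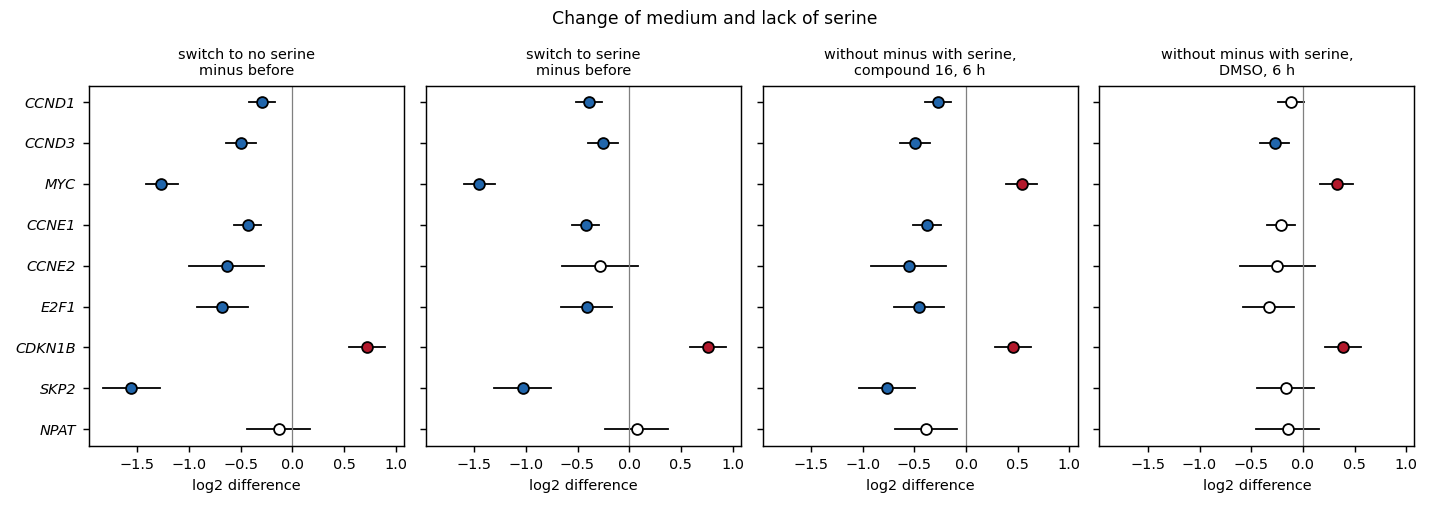
Log2 differences of the 9 genes, with 95% intervals, for the change of medium without and with serine (left 2 panels) and for medium without minus with serine at 6 h under compound 16 and DMSO (right 2 panels); filled points passed the test, red higher and blue lower. SKP2 and MYC fell most on the change of medium, and MYC rose without serine at 6 h.

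Lack of serine, with the medium otherwise alike, touched CCND3 at each time up to 6 h. Under DMSO, the members called were CCND3 and SKP2 at 0 h (0 higher, 2 lower, with 5.91% of all genes called), CCND3 at 1.5 h (0 higher, 1 lower, 1.97%), CDKN1B and MYC higher and CCND3 lower at 6 h (2 higher, 1 lower, 3.18%), and none at 24 h (0.159%).

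CCND3, a partner of CDK4 and CDK6, separated the media on every array up to 6 h by the probe set used. The share of all genes that did so was not counted. At 0 h the 6 arrays without serine had 10.51 to 10.63 and the 6 with serine 10.73 to 10.95, with compound and DMSO arrays pooled. At 1.5 h the ranges were 10.37 to 10.5 without serine and 10.83 to 11.02 with serine, and at 6 h 10.62 to 10.89 without and 11.08 to 11.25 with. At 24 h they met, at 9.85 to 10.53 without and 10.29 to 10.58 with serine.

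Under DMSO the differences of CCND3 were -0.24 ± 0.07 at 0 h (limma adjusted p = 0.0323), -0.47 ± 0.08 at 1.5 h (0.000392), -0.27 ± 0.07 at 6 h (0.0204) and -0.13 ± 0.07 at 24 h (0.688). The mean with its dim probe set was not called, at -0.15 at 0 h (0.412), -0.34 at 1.5 h (0.0805) and -0.17 at 6 h (0.419). The 0 h call was lost without replicate 19 or 21 (no serine) or 14 or 15 (serine), with values of -0.26 to -0.18, and the 6 h call without replicate 66, 67, 60 or 62 (-0.28 to -0.24). The 1.5 h call was lost without replicate 49, 1 of the 2 arrays with serine (-0.38, adjusted p = 0.0657). SKP2 at 0 h (-0.53 ± 0.14, 0.0140) lost its call without replicate 19, 20 or 13 (-0.51 to -0.46). At 1.5, 6 and 24 h SKP2 differed by -0.44 (0.147), -0.16 (0.687) and -0.14 (0.882).

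At 6 h under DMSO, CDKN1B had 10.58, 10.21 and 10.22 without serine, against 9.98, 9.98 and 9.88 with serine. It was higher by 0.39 ± 0.09 (adjusted p = 0.00506), with replicate 66 the highest, and without that array the value was 0.27 (adjusted p = 0.110). MYC had 11.82, 11.59 and 11.74 without serine, against 11.45, 11.38 and 11.34 with serine, a difference of 0.33 ± 0.08 (0.00734). The MYC groups did not overlap, and its call was lost without replicate 66 (0.28, 0.0754) or 62 (0.30, 0.0560).

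Under compound 16, the count of members called was highest at 6 h. At 0 h CCND3 and SKP2 were lower (0 higher, 2 lower, with 4.12% of all genes called). At 1.5 h CDKN1B was higher and CCND3 and SKP2 lower (1 higher, 2 lower, 3.33%). At 6 h 8 of the 9 members passed, 2 higher and 6 lower, with 11.8% of all genes called. At 24 h CCND1 and MYC were higher and CCND3 lower (2 higher, 1 lower, 4.39%). The median over the 9 members at 6 h was -0.39, and over all genes -0.01. The ACTB 3′ less 5′ signal at 6 h under compound 16 averaged 1.2 without serine (1.05 to 1.34) and 1.01 with serine (0.92 to 1.09). Its part in these calls was not tested.

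At 6 h under compound 16, SKP2 had 6.13, 6.69 and 6.26 without serine, against 7.18, 7.09 and 7.12 with serine, a difference of -0.77 ± 0.14 (adjusted p = 7.34e-05). CCND3 differed by -0.49 ± 0.07 (2.46e-06), CCNE1 by -0.37 ± 0.07 (5.91e-05) and CCND1 by -0.27 ± 0.06 (0.00166). MYC again ran the other way, at 11.94, 11.85 and 11.90 without serine, against 11.51, 11.12 and 11.44 with serine. Its difference was 0.54 ± 0.08 (1.38e-06), and CDKN1B was higher by 0.46 ± 0.09 (0.000184). E2F1 (-0.46 ± 0.12, 0.00805) lost its call without replicate 57 or 59 (-0.38 and -0.40, 0.0690 and 0.0515), and CCNE2 (-0.56 ± 0.18, 0.0385) without any 1 of replicates 57, 59, 63, 64 and 65 (-0.58 to -0.41).

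At the other times under compound 16, CCND3 differed by -0.30 ± 0.07 at 0 h (0.00769), -0.50 ± 0.07 at 1.5 h (1.12e-05) and -0.32 ± 0.07 at 24 h (0.00283), and SKP2 by -0.55 ± 0.14 at 0 h (0.0124) and -0.73 ± 0.14 at 1.5 h (0.000557). CCND3 and SKP2 stood lower without serine already at 0 h, when the cells had been in these media for 24 h. At 24 h after addition SKP2 was not called (-0.13 ± 0.14, adjusted p = 0.723), and its arrays overlapped. CDKN1B was higher at 1.5 h by 0.52 ± 0.09 (0.000137), with 10.25, 10.18 and 10.22 without serine, against 9.63, 9.76 and 9.71 with serine. At 24 h MYC (0.29 ± 0.08, 0.0136) lost its call without replicate 94 or 100 (0.24 and 0.28), CCND3 without replicate 99 (-0.24, 0.0676), and CCND1 (0.20 ± 0.06, 0.0482) without any 1 of replicates 94, 95, 99, 100 and 101 (0.15 to 0.23). At 1.5 h the ACTB 3′ less 5′ signal also differed between the media, at 1.08 to 1.17 without serine and 1.02 to 1.04 with serine under compound 16, and 1.11 to 1.33 without and 1.02 to 1.08 with serine under DMSO, and its part was not tested. At 0 h CCND3 lost its call without replicate 10 (-0.28, 0.0519) and SKP2 without replicate 10 or 16 (-0.44 and -0.40). The mean of both CCND3 probe sets was not called at 0 h (-0.29, limma adjusted p = 0.071) or 24 h (-0.095, 0.71). That mean was called under compound 16 at 1.5 h (-0.32, 0.0332) and 6 h (-0.28, 0.0393).

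**Figure D3:**
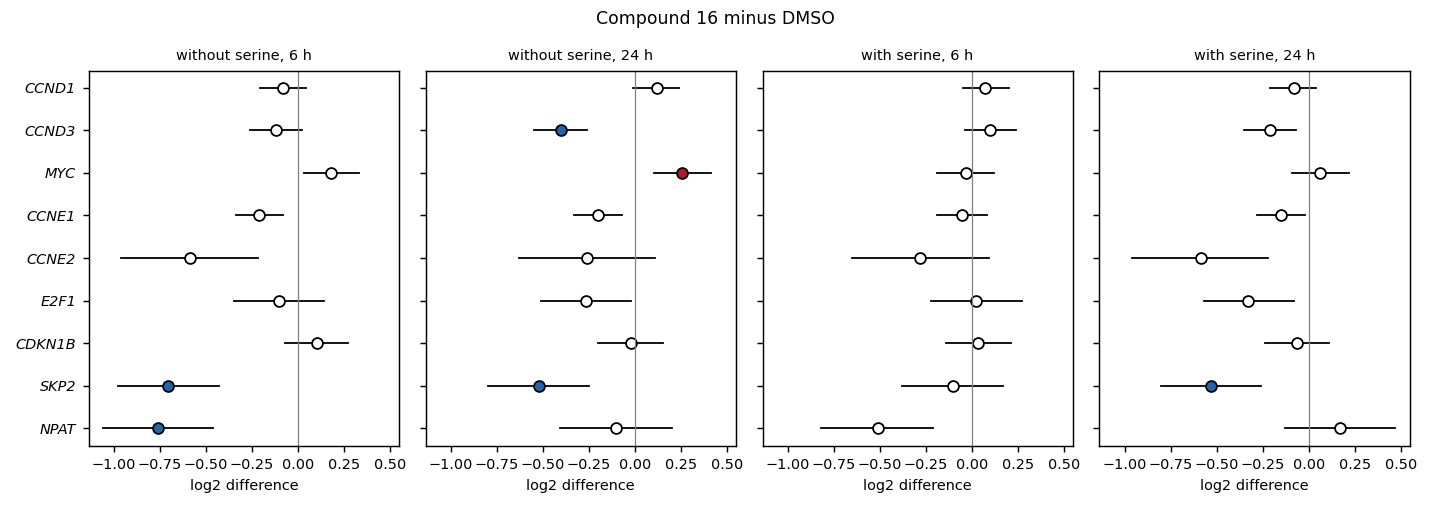
Log2 differences of the 9 genes, compound 16 minus DMSO, with 95% intervals, at 6 and 24 h in medium without serine (left 2 panels) and with serine (right 2 panels); filled points passed the test, red higher and blue lower. SKP2 and NPAT passed as lower at 6 h without serine, and SKP2 in both media at 24 h.

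The compound itself changed few of these genes, and late. Without serine, no member passed at 0 h (0% of all genes called, 1318 genes at an unadjusted p under 0.05) or at 1.5 h (0.0822% called). SKP2 and the brightest NPAT probe set were lower at 6 h (0 higher, 2 lower, with 2.72% of all genes called). MYC was higher and CCND3 and SKP2 lower at 24 h (1 higher, 2 lower, 7.06%). With serine, no gene of the array was called by limma at 0, 1.5 or 6 h (0%, 0% and 0%, with 1029, 614 and 1105 genes at an unadjusted p under 0.05). SKP2 was the 1 member lower with serine at 24 h (0 higher, 1 lower, 1.37%). At 6 h without serine the ACTB 3′ less 5′ signal was 1.05 to 1.34 under compound 16 and 1.28 to 1.37 under DMSO. Its part in the 6 h calls was not tested.

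SKP2 without serine had 6.13, 6.69 and 6.26 under compound 16 at 6 h, against 7.04, 7.08 and 7.09 under DMSO. At 24 h it had 5.64, 5.78 and 5.96 under compound 16, against 6.30, 6.48 and 6.16 under DMSO. The groups did not overlap at either time. The differences were -0.71 ± 0.14 (limma adjusted p = 0.000888), a 1.63-fold fall, at 6 h and -0.52 ± 0.14 (0.0101), a 1.44-fold fall, at 24 h. The 24 h call was lost without compound replicate 99 (-0.45, 0.0794) or the DMSO array at 6.48 (-0.44, 0.0820). With the spread taken from the 6 arrays of the comparison alone, SKP2 had an adjusted p of 0.104 at 6 h and 0.0785 at 24 h.

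With serine, SKP2 had 7.18, 7.09 and 7.12 under compound 16 at 6 h, against 7.31, 7.01 and 7.38 under DMSO, and these overlapped (-0.10, 95% interval -0.38 to 0.17). At 24 h it had 5.86, 5.76 and 6.16 under compound 16, against 6.31, 6.41 and 6.64 under DMSO, with no overlap. The 24 h fall was -0.53 ± 0.14 (adjusted p = 0.0332), and it was lost without compound replicate 93 or 94 or DMSO replicate 97 or 98 (-0.55 to -0.43, adjusted p 0.0729 to 0.232). The effect at 6 h without serine exceeded that with serine by -0.60 (95% interval -0.99 to -0.22), which did not pass over all genes (adjusted p = 0.164) and passed when compound replicate 64, the highest of its group, was left out. At 24 h the effects differed by 0.01 (-0.38 to 0.39).

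CCND3 without serine at 24 h had 9.85, 10.06 and 10.15 under compound 16, against 10.32, 10.42 and 10.53 under DMSO. The 3 compound arrays were the lowest of all 50. The fall was -0.40 ± 0.07 (adjusted p = 8.71e-05), and from the 6 arrays alone the adjusted p was 0.115. With serine CCND3 differed by -0.21 ± 0.07 (0.160), with 10.42, 10.32 and 10.29 under compound 16, against 10.51, 10.57 and 10.58 under DMSO.

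MYC without serine at 24 h had 11.83, 11.88 and 11.84 under compound 16, against 11.59, 11.63 and 11.56 under DMSO. The rise of 0.26 ± 0.08 (adjusted p = 0.0267) was lost without compound replicate 99, 100 or 101 or the DMSO array at 11.59 or 11.56 (0.24 to 0.27, adjusted p 0.0573 to 0.101). At 6 h the difference was 0.18 ± 0.08 (0.253). With serine, MYC differed by 0.06 ± 0.08 at 24 h (0.819) and the groups overlapped.

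The E cyclins and E2F1 lay lower under the compound in some comparisons, without passing the test. CCNE2 without serine at 6 h had 7.21, 7.12 and 7.14 under compound 16, against 7.91, 7.61 and 7.72 under DMSO (-0.59 ± 0.18, adjusted p = 0.0746). CCNE1 there differed by -0.21 ± 0.07 (0.0691) and at 24 h by -0.20 ± 0.07 (0.0533). With serine at 24 h, CCNE2 had 7.04, 6.30 and 6.67 under compound 16, against 7.33, 7.08 and 7.36 under DMSO (-0.59 ± 0.18, 0.111). The groups did not overlap in these 4 comparisons, and the share of all genes without overlap was not counted. E2F1 at 24 h differed by -0.27 ± 0.12 without serine (0.217) and -0.33 ± 0.12 with serine (0.225), and its arrays overlapped in both media. Over all 8 compound comparisons its differences ran from -0.33 to 0.205, the highest at 1.5 h without serine. CCNE1 and CCNE2 passed at 6 h when genes in the lowest 40% of mean signal were left out, and 4 members were then called.

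CDKN1B did not pass in any of the 8 compound comparisons, with differences of -0.09 to 0.17, and neither did CCND1, at -0.08 to 0.12. The interval for CDKN1B at 24 h was -0.20 to 0.15 without serine and -0.24 to 0.11 with serine.

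Whether the compound acted differently in the media was tested directly. No member passed in limma at 0 h (0% of all genes called, 1070 at an unadjusted p under 0.05), 1.5 h (0.0164%), 6 h (0.899%) or 24 h (1.28%). Beside SKP2 at 6 h, the smallest unadjusted p values were those of MYC at 1.5 h (0.0246), CCND1 at 24 h (0.0269) and E2F1 at 1.5 h (0.0269), all with adjusted p of 0.363 or more.

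NPAT gave a result that depended on the probe set. Its 3 probe sets all name NPAT, the coactivator of histone genes. The brightest had 6.78, 6.82 and 6.68 under compound 16 without serine at 6 h, against 7.50, 7.60 and 7.46 under DMSO, a difference of -0.76 ± 0.15 (limma adjusted p = 0.00135). The groups were far apart, and no single array decided the call. The second, nearly as bright (means over all arrays of 7.29 and 7.27), had 7.16 ± 0.22 under compound 16 and 7.18 ± 0.14 under DMSO (SD, n = 3 each), and the dim one differed by 0.02. With serine at 6 h, the brightest differed by -0.51 ± 0.15 (limma unadjusted p = 0.00154, adjusted p = 0.549), and its arrays overlapped. Its compound effects without and with serine differed by -0.25 (95% interval -0.68 to 0.18). With serine the second had means of 7.04 under compound 16 and 7.39 under DMSO.

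The mean of the NPAT probe sets differed by -0.25 (adjusted p = 0.110). Over the 17 group means the 2 bright probe sets correlated at 0.04, a description of groups that share arrays and normalization. From 0 to 6 h in DMSO without serine they went opposite ways, the brightest by 0.41 ± 0.15 (0.0433) and the second by -0.56 ± 0.14 (0.00378). The call of the brightest there was lost without any 1 of replicates 66, 67, 68, 19 and 20 (0.33 to 0.44). No statement on NPAT RNA as a whole is made from these values. NPAT (chr11:108157215-108222638, minus strand, GRCh38.p14) and ATM start in opposite directions, 429 bases apart at the nearest ATM start. ATM rose on the change of medium, by 0.49 without serine and 0.59 with serine, and no factor of the histone list below was called under the compound.

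**Figure D4:**
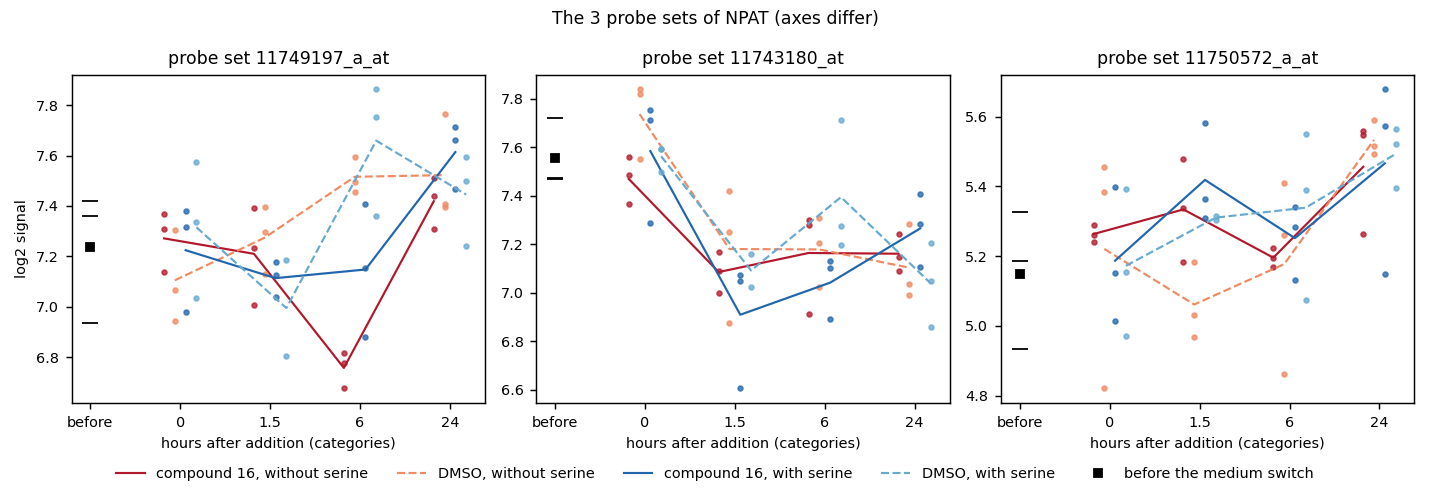
Log2 signal of the 3 NPAT probe sets on each array (points) by hours after addition, with lines through group means (solid for compound 16, dashed for DMSO, red without and blue with serine) and the preSwitch arrays as dashes; each panel has its own axis. Under compound 16 at 6 h, the brightest probe set is lower without serine, where the other 2 are not. With serine its mean is also lower, and its arrays overlap.

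Probe sets of CDKN1B, CCNE2 and CCNE1 agreed more closely. The group means of the 2 CDKN1B probe sets correlated at 0.95, those of CCNE2 at 0.88 and those of CCNE1 at 0.82, and the CCND1 probe sets correlated with the one used at 0.44 to 0.86. SKP2 rested on 1 bright probe set (mean 6.81), since its second, at 4.07, lay at the 5.8th percentile of mean signals and correlated with it at 0.19. Averaging both took SKP2 at 6 h without serine to -0.37 (adjusted p = 0.0778). CCND3 likewise had a second probe set at 4.16, and the mean of both gave -0.21 (0.198) at 24 h without serine.

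Most members differed between the times in the new medium, in a pattern that differed by gene. Time and block cannot be told apart here. The CCND1 arrays at 1.5 h had 10.69 to 10.86, all above those at 0 h, which had 10.18 to 10.57, whatever the medium and treatment. At 6 h they had 10.42 to 10.75 and at 24 h 10.09 to 10.45. SKP2 had medians of 6.98, 6.70, 7.08 and 6.16 and CDKN1B of 9.89, 9.88, 10.12 and 10.57 at 0, 1.5, 6 and 24 h, so that from 6 to 24 h the medians went opposite ways. These ranges and medians pool the media and treatments as a description, and the share of all genes that did the same was not counted.

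From 0 to 6 h without serine, CDKN1B and MYC rose and the brightest NPAT probe set fell under compound 16 (2 higher, 1 lower, with 19.9% of all genes called), and CCND3, CCNE2, CDKN1B and the brightest NPAT probe set, against its second, rose under DMSO (4 higher, 0 lower, 22.4%). With serine, the members that rose were CCND1, CCND3, CCNE1 and CCNE2 in each treatment (4 higher, 0 lower, 14.5% under compound 16 and 14.3% under DMSO).

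CCND1 by the probe set used differed without serine by -0.02 ± 0.06 under compound 16 and 0.08 ± 0.06 under DMSO, neither called. Its second probe set did rise without serine, by 0.35 ± 0.12 under compound 16 (limma adjusted p = 0.0313) and 0.53 ± 0.12 under DMSO (0.00098). Another rose under DMSO only (0.44 ± 0.17, 0.0492), and the last was called in neither (0.093 and 0.165). With serine the CCND1 probe set used had 10.75, 10.72 and 10.72 under compound 16 at 6 h, against 10.38, 10.45 and 10.18 at 0 h. The difference was 0.39 ± 0.06 (limma adjusted p = 1.73e-05), and under DMSO it was 0.29 ± 0.06 (0.000970). CDKN1B rose without serine, by 0.53 ± 0.09 under compound 16 (1.68e-05) and 0.46 ± 0.09 under DMSO (0.000120). With serine CDKN1B differed by 0.08 and 0.03. Whether these steps differed between the media was not tested.

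CCNE1 rose by 0.32 ± 0.07 (0.000507) under compound 16 and 0.30 ± 0.07 (0.00123) under DMSO with serine, and MYC by 0.34 ± 0.08 (0.000992) under compound 16 without serine. CCNE2 rose by 0.71 ± 0.18 (0.00396) under DMSO without serine. Its rise with serine was lost under compound 16 (0.63 ± 0.18, 0.0153) without replicate 59 or 11 (0.48 and 0.51), and under DMSO (0.60 ± 0.18, 0.0202) without replicate 60, 62, 13 or 14 (0.56 to 0.60). CCND3 rose by 0.33 ± 0.07 (0.00118) under compound 16 with serine. Its DMSO rises were lost with serine (0.27 ± 0.07) without replicate 13 (0.22, 0.0560), and without serine (0.24 ± 0.07) without replicate 68 or 19 (0.21 each, 0.0587 and 0.0628). The fall of the brightest NPAT probe set under compound 16 without serine (-0.51 ± 0.15, 0.0114) was lost without replicate 65 or 17 (-0.47 and -0.47, 0.0551 and 0.0542).

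From 6 to 24 h, CCND3 and SKP2 fell in all 4 arms of medium and treatment, and CDKN1B rose in 3 of them. Without serine, the brightest NPAT probe set rose and CCND3, SKP2 and E2F1 fell under compound 16 (1 higher, 3 lower, with 10.6% of all genes called), and CDKN1B rose and CCND1, CCND3 and SKP2 fell under DMSO (1 higher, 3 lower, 11.8%). Under compound 16 without serine, CCND1 by the probe set used differed by -0.06 ± 0.06 (limma adjusted p = 0.643). Its second and its dimmest probe sets rose there by 0.36 ± 0.12 each (0.0428 and 0.0432), and the remaining one differed by 0.027 (0.955). With serine, 6 members fell in each treatment, CCND1, CCND3, CCNE1, CCNE2, SKP2 and E2F1. CDKN1B and the brightest NPAT probe set rose under compound 16 (2 higher, 6 lower, 20.1%) and CDKN1B under DMSO (1 higher, 6 lower, 15.5%).

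SKP2 with serine had 5.86, 5.76 and 6.16 under compound 16 at 24 h, against 7.18, 7.09 and 7.12 at 6 h, a difference of -1.20 ± 0.14 (limma adjusted p = 1.01e-08). The ACTB 3′ less 5′ signal in this arm was 1.13 to 1.24 at 24 h and 0.92 to 1.09 at 6 h, and its part in the 8 calls was not tested. Under DMSO the SKP2 difference was -0.75 ± 0.14 (0.000130) without serine and -0.78 ± 0.14 (4.90e-05) with serine. Under compound 16 without serine SKP2 fell by 0.57 ± 0.14 (0.00377) and this call was lost without replicate 64 (-0.40, 0.0763). CCND3 fell by 0.69 under compound 16 and 0.40 under DMSO without serine, and by 0.86 under compound 16 and 0.55 under DMSO with serine.

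CCNE2 fell by 1.04 ± 0.18 (3.34e-05) under compound 16 with serine and E2F1 by 0.94 ± 0.12 (1.55e-07), with 6.42, 6.25 and 6.55 at 24 h, against 7.52, 7.07 and 7.47 at 6 h. Without serine under compound 16, the fall of E2F1 (-0.46 ± 0.12, 0.00941) was lost without replicate 99 (-0.34, 0.115). CDKN1B rose with serine by 0.49 ± 0.09 (3.91e-05) under compound 16 and 0.58 ± 0.09 (3.64e-06) under DMSO. Its rise under DMSO without serine (0.27 ± 0.09, 0.0358) was lost without the 24 h array at 10.60 or 10.66 or the 6 h replicate 67 or 68 (0.20 to 0.27). The rise of that NPAT probe set with serine (0.47 ± 0.15, 0.0215) was lost without replicate 93, 94, 57 or 59 (0.33 to 0.47). Its rise without serine (0.66 ± 0.15, 0.00223) held without any 1 array, but the second NPAT probe set differed by -0.003.

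Over all 17 groups, SKP2 ranged most between group means (2.49), then CDKN1B and MYC (1.46 each), CCNE2 (1.32), E2F1 (1.31), CCND3 (1.18), NPAT (0.90), CCNE1 (0.82) and CCND1 (0.64). When the groups were put in the order of their means, most neighbours could not be separated. Of 16 neighbouring pairs, arrays overlapped in 13 for SKP2 and E2F1, 14 for CCND3 and CCNE1, 15 for CCND1, CDKN1B and MYC, and 16 for CCNE2 and NPAT. Of the 30 comparisons, CCND3 was called in 17, SKP2 in 13, CDKN1B in 10, CCND1 in 9, CCNE1, CCNE2 and MYC in 7 each, E2F1 in 6 and NPAT in 5. These comparisons share arrays, and the share of all genes called ran from 0% to 28.6% between them. How often other genes were called was not counted. SKP2 and E2F1 were lower in each comparison in which they were called, and CDKN1B higher.

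Among the members, group means of SKP2 and E2F1 correlated at 0.93, CCND1 and CCNE1 at 0.92 and CCND3 and SKP2 at 0.85, while CDKN1B correlated with SKP2 at -0.87 and with E2F1 at -0.85. Of 3376 genes whose group means varied, those most like SKP2 were DEF8 (0.98) and GINS4 (0.95), a subunit of the replicative helicase, and most like E2F1 were MCM2 (0.97), another helicase subunit, and EFHD2 (0.96). CCND3 went with the exonuclease EXO1 (0.94) and MCM4 (0.93), CCNE2 with CHAC2 (0.92) and the origin licensing factor CDC6 (0.91), and CCNE1 with PAQR9 (0.93) and LINC02693 (0.92). CCND1 went with TOE1 (0.94) and MIR22HG (0.93), CDKN1B with GALNT7 and MATN2 (0.96 each), and MYC with HEY1 and HES1 (0.92 each), transcription factors downstream of Notch. NPAT had no close partner (KDM4B 0.72, H2AC20 0.67). All are Pearson correlations over 17 group means, which share arrays, blocks and normalization. The MYC mean was 12.81 in preSwitch cells and 11.35 to 11.90 in the other groups, so the preSwitch group weighs heavily in its correlations.

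The genes around these members were read from 4 lists. Of 20 S entry targets of E2F, 19 were measured. Under compound 16 without serine, 7 fell and 0 rose at 6 h (median -0.19, against -0.01 over all genes), led by the licensing factor CDT1 (-0.42), MCM10 (-0.39), CDC6 (-0.38) and UHRF1 (-0.37). At 24 h 7 fell and 0 rose (median -0.18, against 0.00), led by cyclin A2 (CCNA2, -0.61), the ribonucleotide reductase subunit RRM2 (-0.60), CDC45 (-0.57) and thymidine kinase TK1 (-0.52). With serine at 24 h 1 fell. The shares of all genes called in these comparisons were 2.72%, 7.06% and 1.37%.

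Without against with serine at 6 h, 17 of these 19 targets fell under compound 16 (median -0.44), where 11.8% of all genes were called, and 5 under DMSO, where 3.18% were. On the change of medium 16 fell without serine (median -0.49) and 12 with serine (median -0.36), and none rose, where 28.6% and 21.7% of all genes were called. The difference of the compound's effect between media was called, as lower, for 1 target at 6 h, CDC6, and for 3 at 24 h (0.899% and 1.28% of all genes).

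Of 29 other G1 regulators, 0 rose and 1 fell under the compound without serine at 6 h, CDC25A, the phosphatase that activates CDK2 (-0.57 ± 0.13, adjusted p = 0.00989). At 24 h 1 rose and 1 fell, the inhibitor CDKN1A (p21, 0.31 ± 0.07, 0.00186) and the repressor E2F7 (-0.54 ± 0.12, 0.00222). None was called with serine at 24 h. The 1 called at 6 h and the 2 called at 24 h are about the shares of all genes (2.72% and 7.06%). Without against with serine under compound 16 at 6 h, 2 rose and 7 fell, where 11.8% of all genes were called. On the change of medium 3 rose and 11 fell without serine, where 28.6% were called, and 1 rose and 3 fell with serine, a smaller share than the 21.7% of all genes.

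Of 12 MYC partners and relatives, MXI1, a MAX-binding repressor, rose at 6 h under the compound without serine (0.33 ± 0.08, 0.0146). The count was 1 higher and 0 lower, where 2.72% of all genes were called. At 24 h MAX, the shared dimer partner, rose (0.21 ± 0.06, 0.0227). MXD3, a repressor of the same network, fell by 0.87 ± 0.10 (1.96e-08). At 24 h the count was thus 1 higher and 1 lower, where 7.06% of all genes were called. On the change of medium, in which MYC fell, 7 rose and 1 fell without serine and 5 rose and 1 fell with serine (28.6% and 21.7% of all genes called), with MXD4 higher by 1.01 and 0.58. Of 10 histone mRNA factors around NPAT, 9 were measured and none was called in any compound comparison. On the change of medium 3 rose and 1 fell without serine and 3 rose and 2 fell with serine, beside the same shares of all genes, with SLBP, which binds the histone mRNA stem-loop, at -0.28 in each.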

How the data were processed

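The values are log2 signals per probe set, as deposited, of 50 Affymetrix HG-U219 arrays, extracted with Trizol and labelled with biotin per the labels' protocols. The authors made them with RMA per the submitters' processing notes, which name RMA and limma. RMA normalizes between arrays, so a shift shared by all genes is removed, and it compresses changes of dim probe sets. No detection value was used here.

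Of 49386 probe sets, 45259 name 1 gene by the platform annotation, which can be old. The probe set with the highest mean stood for each of 18239 genes, with no further normalization or filter. Coordinates and promoters are from RefSeq tables of GRCh38.p14. All arrays entered 1 fit of 17 group means in limma 3.58.1 (R 4.3.3) with eBayes (33 residual and 3.7 prior degrees of freedom), tested on simulated data first. Adjustment was Benjamini-Hochberg over all genes within each of 30 comparisons, which share control arrays, and the median SE for 3 against 3 arrays was 0.122. Precision is limited by the number of arrays.

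The members and the gene lists were chosen with earlier results of these data known. Named besides members are the 2 genes most like each one over group means with an SD of at least 0.2, and of each list up to 4 genes called each way under the compound without serine at 6 or 24 h. ATM, SLBP and MXD4 were named after their values were seen. Alternatives tried were leaving out genes in the lowest 40% of mean signal, quantile normalization, centring, the mean of a gene's probe sets, each other probe set, array weights, only the arrays of a comparison, and leaving out each array.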

Additional observations from a re-analysis of the deposited data

How the results depend on the processing

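Of 81 calls of a member in a comparison, among 270 tested, 52 held whichever array was left out and 45 held when the fit used only the arrays of the comparison, which leaves fewer degrees of freedom. Quantile normalization moved no count of called members by more than 1.5 times. The reported count of 2 called members for compound 16 against DMSO without serine at 6 h became 4 when dim genes were left out, 4 with array weights, 0 with the mean of all probe sets and 1 with only the comparison's arrays. With only those arrays, 0 members were called for the compound at 24 h in either medium, for serine lack under DMSO at 0, 1.5 and 6 h, for serine lack under compound 16 at 0 and 24 h, and from 0 to 6 h under compound 16 with serine. The count became 5 for serine lack under compound 16 at 6 h, 2 from 6 to 24 h under compound 16 without serine, and 2 and 1 from 0 to 6 h under DMSO without and with serine.

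The mean of all probe sets left 0 called members for the compound with serine at 24 h and for serine lack at 0 h under DMSO and compound 16, and array weights left 1 for serine lack under DMSO at 0 h. Centring arrays on their medians raised every difference from 0 to 6 h under DMSO without serine by 0.13, and 8 members were then called in place of 4; the shift was 0.14 to 0.16 for the other 3 steps from 0 to 6 h and under 0.1 for every other comparison of groups. With each array left out in turn, counts ran from 1 to 3 for the compound without serine at 24 h and from 0 to 1 with serine at 24 h, from 0 to 1 for the difference of its effects at 6 h, from 0 to 1, 0 to 1 and 0 to 3 for serine lack under DMSO at 0, 1.5 and 6 h, from 0 to 2 and 1 to 3 under compound 16 at 0 and 24 h, and from 2 to 5 and 2 to 4 from 0 to 6 h under DMSO without and with serine.

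Directions turned only with other probe sets, and the cause was not tested. SKP2 by its dim probe set differed by 0.005 and 0.057 for the compound at 24 h without and with serine, and by 0.049, 0.009 and 0.087 for serine lack under DMSO at 0 h and compound 16 at 0 and 6 h. CCND3 by its dim probe set differed by 0.134 for serine lack under compound 16 at 24 h, 0.025 for the change to medium with serine, -0.024 and -0.001 from 0 to 6 h under DMSO without and with serine, and 0.004 from 6 to 24 h under DMSO without serine. CCND1 by a second probe set differed by 0.037 from 6 to 24 h under DMSO without serine. NPAT by its other probe sets differed by 0.019 for the compound at 6 h without serine, -0.003 from 6 to 24 h under compound 16 without serine, and -0.558 and -0.044, with a mean of all probe sets of -0.063, from 0 to 6 h under DMSO without serine. No paired analysis was possible because the replicate numbers run through the series and no groups share them.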
